A study of Drosophila melanogaster with 2 samples.

Results

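The genes described here encode subunits of the proton pump of acidic organelles and proteins of the lysosome, in whole Drosophila melanogaster embryos with and without hemocytes, the blood cells of the fly. They were taken by name alone: genes whose symbol in the platform annotation starts with Vha, LMan, Npc1, Npc2 or Hexo, together with CtsL1, CtsB, CtsF, cathD, Lamp1, Lerp and Gba1b. Of the 8224 genes with a ratio on both arrays, 33 met this rule: 18 pump subunits, 8 hydrolases, 5 sterol transport genes and 2 genes of membrane and sorting proteins. RefSeq lists 58 genes of these symbols, so 25 were not measured here by a probe with a single gene name. Those 25 include the pump genes Vha68-1 and Vha68-2, the mannosidase genes LManI and LManIV, Hexo1, CtsF and Gba1b.

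Total RNA of both kinds of embryo was hybridised together on each of 2 two-colour arrays, A and B, with the dyes exchanged between them. On array A, RNA of unwounded hemocyte minus embryos carried Cy3 and RNA of unwounded hemocyte plus embryos carried Cy5. On array B the hemocyte plus RNA carried Cy3 and the hemocyte minus RNA Cy5, and the word unwounded is absent from its labels. The series' design names the groups as wild type and serpent (srp) mutant embryos. The srp allele, the age of the embryos and whether the arrays shared RNA extracts were not stated in the labels read here. Because srp encodes a GATA factor needed for hemocytes and for the fat body, a ratio cannot be assigned to hemocytes alone. In whole embryos, fewer cells of a type and less RNA per cell cannot be told apart.

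The vacuolar proton pump is a rotary enzyme that uses ATP to acidify lysosomes, endosomes and secretory vesicles, and in some epithelia it also works at the cell surface. Its V1 sector lies in the cytosol and splits ATP, while its V0 sector lies in the membrane and carries protons across it. The low pH activates lysosomal hydrolases, which break down proteins, sugar chains and lipids, and NPC proteins then move the released cholesterol out. Embryonic hemocytes are macrophages that digest apoptotic cells in such compartments.

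Values are log2 ratios of hemocyte plus over hemocyte minus RNA, each array centred on its median, with errors as SDs over 2 arrays. Neither the labels nor the values say which dye is the numerator of the deposited ratios. Cy3 was taken, which puts PPO1, a prophenoloxidase gene of crystal cells, at 4.81 (array A) and 4.92 (array B). Of 10 plasmatocyte (macrophage) markers, 8 passed on that same side and none on the other. Values above 0 are therefore said to lie on the hemocyte side and those below 0 on the opposite side. This is the likely direction, chosen with the markers in view, and every sign below turns if Cy5 was the numerator. The mutated gene itself, srp, was at 0.15 (array A) and 0.36 (array B) without passing limma (adjusted p = 0.221), and where its probe lies relative to the lesion is not known here.

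The pump genes lay mostly on the opposite side, and the hydrolase genes lay on both sides of 0. With limma and Benjamini-Hochberg adjustment over all genes at a threshold of 0.05, 5 of the 18 pump subunits passed on the opposite side (27.8%, against 8.18% of all genes). On the hemocyte side 0 pump subunits passed limma and 0 had an unadjusted p under 0.05, while 10 had one on the opposite side (55.6%); of all genes, 12.2% and 15.3% had one on the hemocyte and the opposite side. Of the 8 hydrolases, cathD and Hexo2 passed on the hemocyte side (25%, against 5.27% of all genes). On the opposite side 0 hydrolases passed limma and 2 of 8 had an unadjusted p under 0.05, where 15.3% of all genes did. Over all 33 members 7 passed, or 21.2%, beside 13.4% of all genes, and 17 (51.5%) had an unadjusted p under 0.05, beside 27.5% of all genes. The differences were small: the 7 that passed ranged from 1.36-fold to 1.56-fold, and 0 of the 33 members reached 2-fold on both arrays. How many of all genes reached 2-fold on both arrays was not counted. Tested against a 1.2-fold difference in place of 0 with limma's treat, 0 of the 33 passed. Few of all 8224 genes passed treat: 199 with ratios above 0 and 336 with ratios below 0. Its count of 0 among the 33 is therefore not shown to be particular to them.

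**Figure D1:**
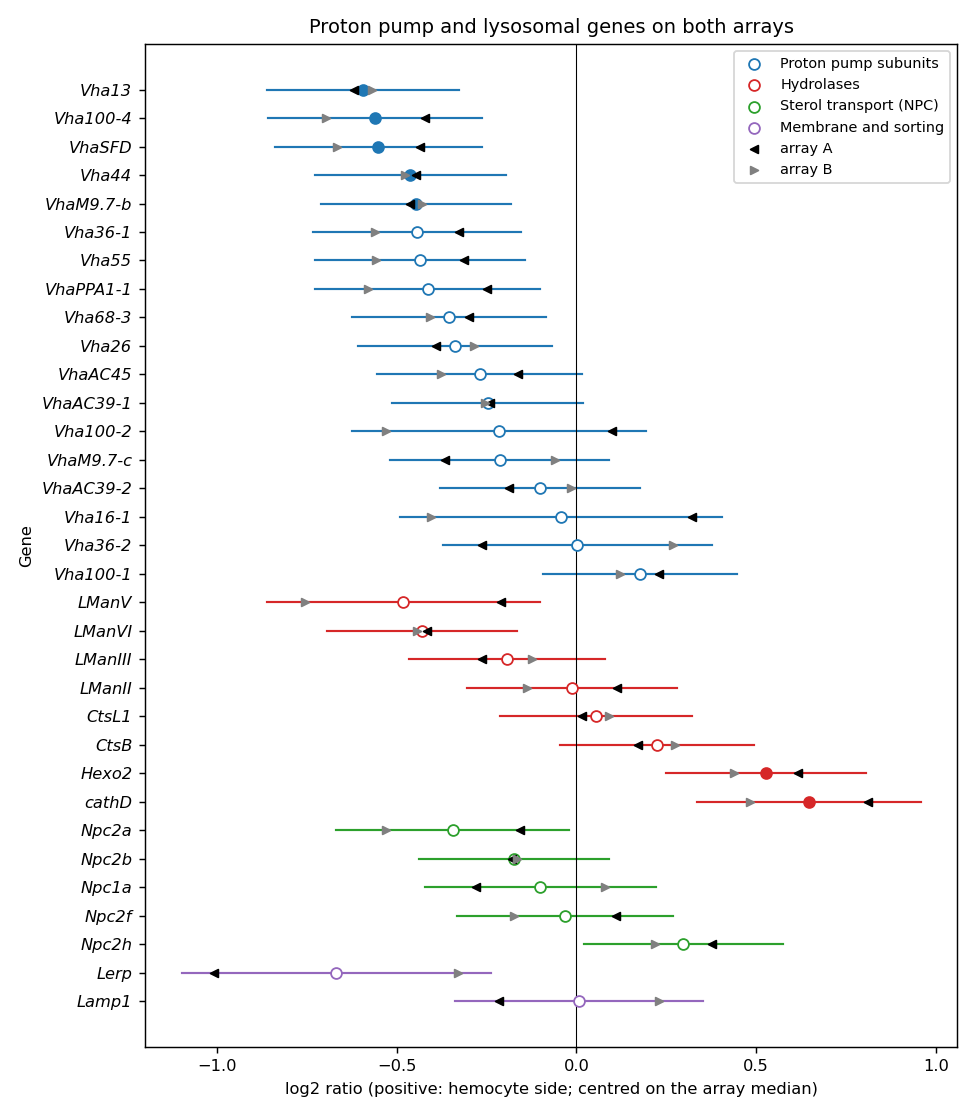
Log2 ratio of each of the 33 members (horizontal axis, positive on the hemocyte side). Circles are means of both arrays, filled where the gene passed limma at an adjusted p under 0.05, lines are 95% intervals from limma, black triangles are array A and grey triangles array B; most pump subunits lie left of 0, from Vha13 at -0.59 to Vha100-1 at 0.18, and the filled hydrolases cathD and Hexo2 lie right of it.

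Among the V1 genes, 7 of 8 were below 0 on both arrays (87.5%, against 34.4% of all genes). On the opposite side 3 passed, where 8.18% of all genes did. Vha13 encodes subunit G, part of the stalks that hold the sectors together, and its log2 ratio was -0.62 (array A) and -0.57 (array B). At -0.59 ± 0.03 (1.51-fold, limma adjusted p = 0.0191) its mean was the lowest of the pump, with a 95% interval from -0.86 to -0.33. The spread between the arrays was thus far smaller than the difference itself. VhaSFD encodes subunit H, which the assembled pump needs to work, and lay at -0.44 (array A) and -0.66 (array B) (mean -0.55 ± 0.16, 1.46-fold, limma adjusted p = 0.0317). Vha44 encodes subunit C, which joins V1 to V0, and lay at -0.45 and -0.48 (mean -0.46 ± 0.02, 1.38-fold, limma adjusted p = 0.0423). Vha44 was read by 2 probes from different cDNA clones, with means of -0.49 and -0.44, so both gave nearly the same ratio. Its call ended when probes marked as reamplified or duplicate were left out (limma adjusted p = 0.0511), with the ratio unchanged.

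Close to the threshold were the V1 genes of the stalk and of the catalytic ring. Vha36-1, which encodes subunit D of the central shaft, had log2 ratios of -0.33 and -0.56 on arrays A and B (mean -0.44 ± 0.17, limma adjusted p = 0.0623). Vha55, which encodes subunit B of the ring that splits ATP, had -0.31 and -0.56 (mean -0.43 ± 0.17, limma adjusted p = 0.0693). Both have 95% intervals that end below 0, at -0.16 for Vha36-1 and -0.14 for Vha55, yet neither passed over all genes. The catalytic subunit A was represented by Vha68-3 alone, at -0.30 and -0.41 (mean -0.35 ± 0.08, limma adjusted p = 0.0993). Vha26, which encodes subunit E of the outer stalk, had -0.39 and -0.28 (mean -0.34 ± 0.08, limma adjusted p = 0.110). The exception in V1 was Vha36-2, the other measured gene of subunit D, at -0.26 (array A) and 0.27 (array B) (mean 0.00 ± 0.38). Its arrays differed in sign, so it has no direction here, and its 95% interval from -0.37 to 0.38 includes the means of Vha26 and Vha68-3.

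Among the 9 V0 genes, 6 were below 0 on both arrays (66.7%, against 34.4% of all genes). On the opposite side 2 passed, where 8.18% of all genes did. Vha100-4 encodes a form of subunit a, the large membrane subunit that holds the proton path, and lay at -0.42 (array A) and -0.70 (array B) (mean -0.56 ± 0.19, 1.47-fold, limma adjusted p = 0.0337). VhaM9.7-b encodes a form of the small subunit e and lay at -0.46 and -0.43 (mean -0.45 ± 0.02, 1.36-fold, limma adjusted p = 0.0476). Both genes were on the opposite side on both arrays, and the call of VhaM9.7-b ended without the marked probes (limma adjusted p = 0.0565), and likewise where the most changed probe stood for each gene (0.0561). VhaPPA1-1, which encodes a proteolipid of the rotating ring, had -0.25 and -0.58 (mean -0.41 ± 0.24, limma adjusted p = 0.0967). VhaAC39-1, which encodes subunit d at the foot of the shaft, had -0.24 and -0.25 (mean -0.25 ± 0.01, limma adjusted p = 0.209). The accessory gene VhaAC45 had -0.16 and -0.38 (mean -0.27 ± 0.15, limma adjusted p = 0.205). These last genes kept 1 sign on both arrays without passing the test.

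Genes for the same V0 subunit had unlike means, but no difference between such genes was tested. For subunit a, Vha100-4 stood at -0.56, Vha100-2 at -0.22 and Vha100-1 at 0.18. Vha100-1 is the form known for its work in neurons and was the only pump gene above 0 on both arrays, at 0.23 and 0.12 (limma adjusted p = 0.363), and the test of its difference from Vha100-4 was not made. Vha100-2 and Vha100-4 are neighbouring genes with no protein-coding gene between them in RefSeq. Vha100-2 had 0.10 (array A) and -0.53 (array B), so its mean rests on array B. For subunit d, VhaAC39-2 was at -0.19 and -0.01 (mean -0.10 ± 0.12), nearer 0 than VhaAC39-1. For subunit e, VhaM9.7-c was at -0.37 and -0.06 (mean -0.21 ± 0.22, limma adjusted p = 0.331). Vha16-1, which encodes the main proteolipid of the ring, had the widest gap of all members, with 0.32 (array A) and -0.41 (array B) (mean -0.04 ± 0.51). Its 95% interval, from -0.49 to 0.41, holds the means of all other pump genes except Vha13, Vha100-4 and VhaSFD, so these arrays do not place it among the subunits.

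The 3 cathepsin genes and Hexo2, the only measured hexosaminidase gene of the rule, were above 0, and cathD and Hexo2 passed. The gene cathD, which encodes the aspartic protease cathepsin D, had log2 ratios of 0.81 (array A) and 0.48 (array B) (mean 0.65 ± 0.23, 1.56-fold, limma adjusted p = 0.0246). It ranked 255 from the top among the 8224 genes. Hexo2, which encodes a hexosaminidase that trims N-acetylglucosamine or N-acetylgalactosamine from sugar chains, had 0.62 and 0.44 (mean 0.53 ± 0.13, 1.44-fold, limma adjusted p = 0.0327). Its 2 probes had means of 0.47 and 0.59, so both clones placed it on the same side. The cysteine protease gene CtsB, which encodes cathepsin B, had 0.17 and 0.28 (mean 0.22 ± 0.07, limma adjusted p = 0.255). CtsL1, which encodes cathepsin L, had 0.02 and 0.09 (mean 0.05 ± 0.05, limma adjusted p = 0.797, 95% interval -0.21 to 0.32). These 4 genes were the only ones of the 8 hydrolases above 0 on both arrays (50%, against 34.2% of all genes). CtsB and CtsL1 did not pass.

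Lysosomal alpha-mannosidases, which remove mannose from sugar chains, had no member above 0 in the mean. LManV had log2 ratios of -0.21 (array A) and -0.75 (array B) (mean -0.48 ± 0.39, limma adjusted p = 0.107). LManVI had -0.42 and -0.44 (mean -0.43 ± 0.02, 1.35-fold, limma adjusted p = 0.0533), just short of the threshold. LManIII had -0.26 and -0.12 (mean -0.19 ± 0.10, limma adjusted p = 0.328). LManV and LManVI are adjacent genes in RefSeq and LManIII lies close by with 1 protein-coding gene between it and LManV, and whether their long cDNA probes bind each other's transcripts was not tested. LManII, which lies apart from this cluster, had 0.11 and -0.14 (mean -0.01 ± 0.18, limma adjusted p = 0.960) and so had no direction.

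Set side by side, the pump had a median log2 ratio of -0.35 and the hydrolases 0.02, a difference of -0.37. On array A the medians were -0.31 and 0.06, and on array B -0.42 and -0.02, so the difference was -0.37 and -0.40. Of the pump subunits 14 of 18 were below 0 on both arrays (77.8%, against 34.4% of all genes), and of the hydrolases 3 of 8 (37.5%). The median over all genes was 0.00. Within the hydrolases of the symbol rule, the 4 mannosidases had a median of -0.31 and the 3 cathepsins 0.22. The other measured glycosidase of the rule, Hexo2, stood at 0.53, so enzymes that act on sugar chains lay on both sides. Both cathD and Hexo2 lay above all 18 pump subunits on each array, where the highest pump values were 0.32 on array A (Vha16-1) and 0.27 on array B (Vha36-2). V1 and V0 had medians of -0.44 and -0.22. These are descriptions of genes taken by symbol, with no test of one group against another, since 2 arrays allow no permutation p under 0.5.

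**Figure D2:**
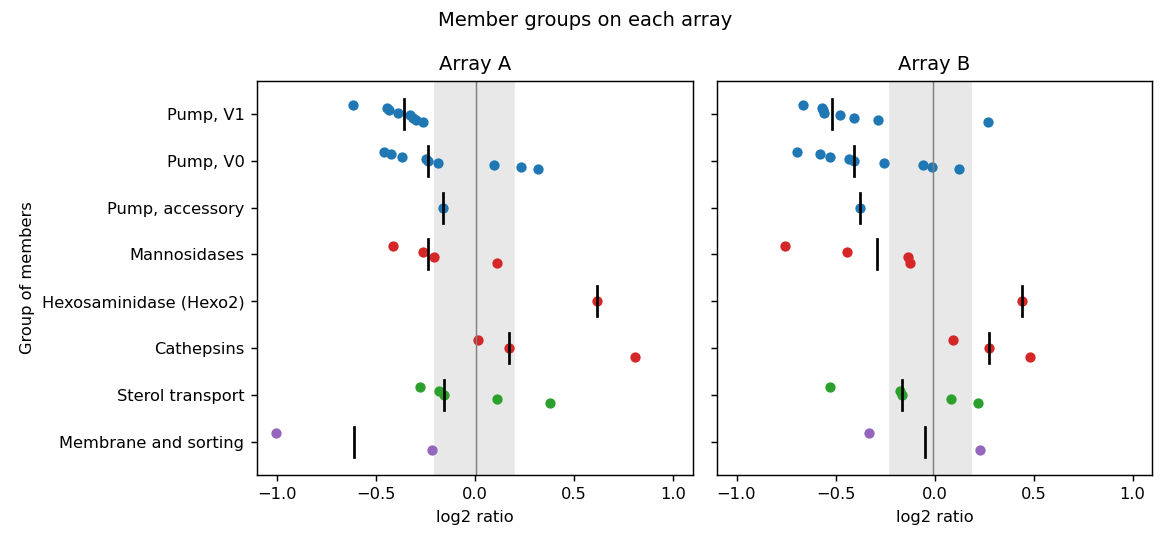
Log2 ratio of each member on array A (left) and array B (right), by group, positive on the hemocyte side. Points are genes, black bars are group medians, the grey band is the interquartile range of all 8224 genes and the grey line their median; V1, V0 and the mannosidases have medians left of the band on both arrays, and the cathepsins have medians of 0.17 (array A) and 0.28 (array B).

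Of the 5 sterol transport genes 0 passed limma on either side, and 2 had an unadjusted p under 0.05, as did 27.5% of all genes. Npc2a, which encodes a soluble lysosomal sterol-binding protein, had log2 ratios of -0.16 (array A) and -0.53 (array B) (mean -0.34 ± 0.26, limma adjusted p = 0.161). Npc2h, another NPC2 family gene, had 0.38 and 0.22 (mean 0.30 ± 0.11, limma adjusted p = 0.156), and its 3 probes had means of 0.16, 0.28 and 0.45. These genes of 1 family thus had opposite signs, each kept on both arrays. Npc2b had -0.18 and -0.17 (mean -0.17 ± 0.01) and Npc2f had 0.11 and -0.17 (mean -0.03 ± 0.20). Npc1a, which encodes the membrane partner of NPC2 proteins, had -0.28 and 0.08 (mean -0.10 ± 0.25, limma adjusted p = 0.674). The 2 Npc1a probes come from the same clone, one of them amplified again, and differed in sign at 0.13 and -0.33.

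Of the membrane and sorting genes, Lerp had the lowest mean of all 33 members. It encodes a receptor that carries hydrolases to the lysosome, and its log2 ratio was -1.01 (array A) and -0.33 (array B) (mean -0.67 ± 0.48, 1.59-fold). It did not pass (limma adjusted p = 0.0601), and its arrays lay 0.68 apart. Lamp1, which encodes an abundant protein of the lysosomal membrane, had -0.22 and 0.23 (mean 0.01 ± 0.32, limma adjusted p = 0.977, 95% interval -0.34 to 0.35).

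The arrays differed more for some members than for others. With the dyes exchanged, a gap between arrays can hold a gene's dye effect as well as other error. These cannot be told apart here, and a dye effect cancels only in the mean. The gap between arrays was over 0.5 for 5 members (15.2%, against 8.69% of all genes): Vha16-1, Lerp, Vha100-2, LManV and Vha36-2. Each of these 5 was read by 1 probe, but only 4 of all 33 members had 2 or more. Pearson r between the arrays was 0.60 across the 33 members and 0.75 across all genes, whose points share the arrays and their normalization. Pump genes were lower on array B than on array A in 12 of 18 cases, as were 20 of all 33 members. The share over all genes was not counted, so this is not shown to be particular to the pump. On array A alone, Hexo2 and cathD were at least 1.5-fold on the hemocyte side (4.58% of all genes) and Lerp and Vha13 on the opposite side (6.16%). On array B alone, 0 members were at least 1.5-fold on the hemocyte side (4.27% of all genes), and LManV, Vha100-4 and VhaSFD were on the opposite side (8.16%).

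**Figure D3:**
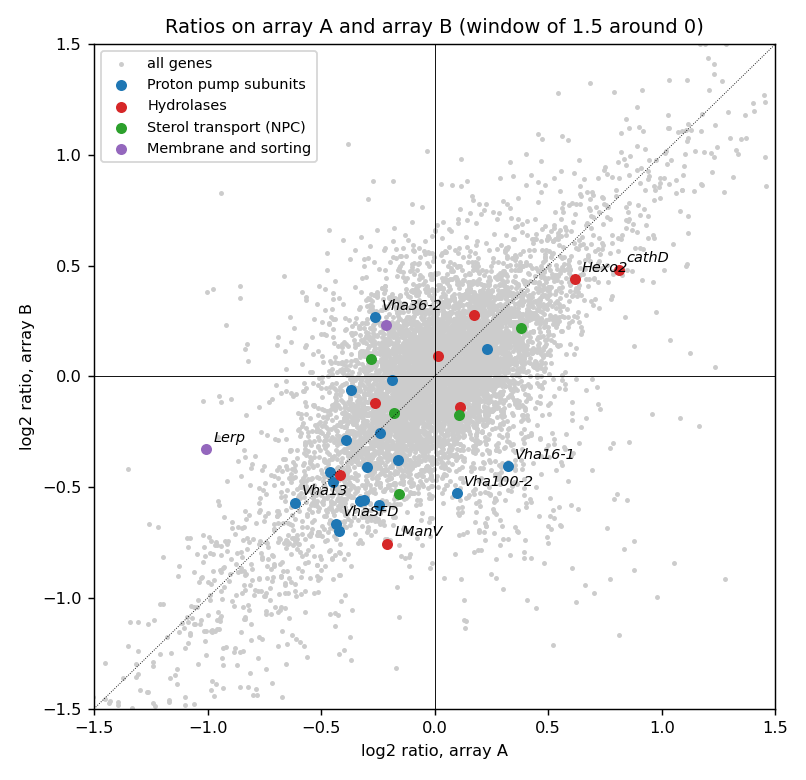
Log2 ratio on array A (horizontal) against array B (vertical) for all genes (grey) and the 33 members (coloured by group), positive on the hemocyte side, with the dotted line marking equal values; genes beyond 1.5 on either axis are outside the window. Most pump subunits sit at the lower left, cathD and Hexo2 in the upper right, and Lerp, Vha16-1, Vha100-2 and Vha36-2 lie off the line.

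Other genes of the pathway, taken from lists by function, showed calls in the hydrolases alone among 4 lists. In the list of other hydrolases, whose median was -0.06, the hemocyte side held 4 genes past limma of 12 measured and the opposite side 2. The matching shares over all genes were 5.27% for the former side and 8.18% for the latter. Gal, which encodes beta-galactosidase, had log2 ratios of 1.58 (array A) and 1.77 (array B) (mean 1.67 ± 0.13, 3.19-fold, limma adjusted p = 0.000771). The lipase gene Lip4 lay at 0.99 ± 0.04, Sap-r, which encodes saposin-related activators of lipid breakdown, at 0.55 ± 0.02, and the cysteine cathepsin gene CtsK1 at 0.55 ± 0.06. On the opposite side were the lipase gene Lip1 at -0.84 ± 0.16 and the sulfatase gene Sgsh at -0.47 ± 0.12. Hydrolase genes thus lay on both sides in this list too.

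The remaining lists gave no call, where 13.4% of all genes passed limma and 27.5% had an unadjusted p under 0.05. Of 22 genes of lysosome trafficking, fusion and membrane, 0 passed limma on either side and 0 had an unadjusted p under 0.05, with means from -0.10 (g) to 0.30 (Cln7) and a median of 0.08. Of 16 autophagy genes 0 passed and 0 had an unadjusted p under 0.05, with a median of -0.06. Of 9 genes of pump assembly and regulation 0 passed limma, 2 had an unadjusted p under 0.05 and the median was -0.09. The lowest of these was ATP6AP2, whose product is an accessory protein of the pump, at -0.36 ± 0.12 (limma adjusted p = 0.101), and the highest was the growth kinase gene mTor at 0.33 ± 0.08.

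Markers of cell types moved on both sides beside these genes. Of plasmatocyte markers 8 of 10 passed on the hemocyte side, with medians of 0.88 (array A) and 0.82 (array B), and of fat body markers 5 of 6, with medians of 0.86 on both. Of the crystal cell markers 3 of 5 passed on that side. On the opposite side were 4 of 5 epidermis and cuticle markers, with medians of -1.93 and -2.30. Midgut markers went both ways, with 2 of 6 past limma above 0 and 1 below 0. The Malpighian tubule, whose cells are known for a dense proton pump, had 1 of 5 markers past the test, Oatp58Dc at 1.24 ± 0.07 on the hemocyte side, while NKCC lay at -0.48 ± 0.47 (limma adjusted p = 0.141) and the median was -0.09. Of the 2 nephrocyte markers, Cubn passed on the opposite side at -0.56 ± 0.14 and kirre lay at 0.20 ± 0.05 without passing (limma adjusted p = 0.304). The part of these cell types in the ratios of pump and hydrolase genes was not tested.

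**Figure D4:**
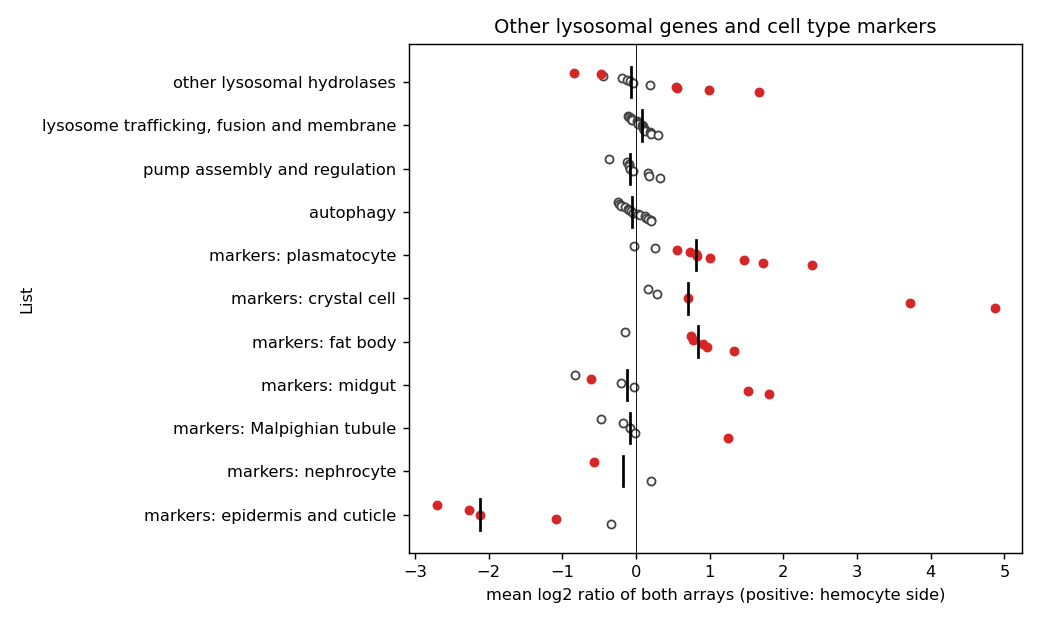
Mean log2 ratio of both arrays (positive on the hemocyte side) for the genes of 4 lysosomal lists and of 7 cell type marker lists. Each point is a gene, red where it passed limma at an adjusted p under 0.05 and open otherwise, and black bars are medians; red points occur in the hydrolase list and the marker lists, and the trafficking, assembly and autophagy lists have none.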

How the data were processed

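The deposited values, 1 for each probe on each array, are all below 0 (medians -0.989 for A and -1.021 for B) and look like a linear dye ratio times -1: their log2 sizes had Pearson r = -0.689 between the dye-swapped arrays. How the authors scanned, corrected, normalized and centred them, and which dye is the numerator, was not given in the sources used here. RNA was extracted with Trizol and RNeasy, per the labels' protocols. Signal over background is unknown without channel intensities, and the number of arrays limits the precision.

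Log2 sizes were turned by the dyes in the labels with Cy3 as numerator, centred per array, and averaged over the probes of a gene. Of 12144 probes, 9793 had 1 gene symbol and both values, giving 8224 genes; 625 probes with several symbols were left out, 9 of them naming a gene described here. Symbols were matched to RefSeq (Release 6) by gene identifier, and genome order was used for neighbours only. The test was limma 3.58.1 under R 4.3.3 (lmFit and eBayes with an intercept, 1 residual and 5.01 prior degrees of freedom) with Benjamini-Hochberg adjustment over all genes. Nothing says that the arrays held separate extracts, so p-values measure only the spread between them, which may be technical. The fit was also run on simulated ratios with independent error on each array and no dye effect. That run checks that the code works and does not test the calls made here.

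The members, lists and tests were chosen with earlier results of these data known. Every gene that met the symbol rule is named, plus srp, PPO1 and, from the other lists, genes past the threshold and list extremes; NKCC and the extremes were chosen after their values were seen. Alternatives were no centring, scaled arrays, the probe of largest change, the median over probes, leaving out probes marked ReAmp, rdnd or dupe, each array alone, and limma's treat against 1.2-fold.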

Additional observations from a re-analysis of the deposited data

How the results depend on the processing

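The median of the pump subunits was below 0 under each alternative for which it was taken, which leaves out treat. It was -0.32 without centring, -0.31 on array A alone and -0.42 on array B alone. The settings that change the choice of probes left it at -0.35, and could hardly move it, since only Vha44 of the pump genes had more than a single probe. The hydrolase median of 0.0209 was 0.0642 on array A alone and -0.0153 on array B alone, and the difference between pump and hydrolases was -0.37 and -0.40. Counts of members past limma moved with the settings: on the opposite side 5 became 8 without centring, 3 without the marked probes and 0 against a 1.2-fold difference, and on the hemocyte side 2 became 0 against a 1.2-fold difference. Over all genes the opposite side went from 673 to 748 without centring, 597 without the marked probes and 336 against a 1.2-fold difference. The hemocyte side over all genes went from 433 to 584, 387 and 199 in the same settings. By 1.5-fold on a single array, the opposite side held 2 to 3 members and the hemocyte side 0 to 2. Without centring LManVI, Lerp and Vha36-1 passed (adjusted p = 0.0454, 0.0287 and 0.0475), and LManVI and Lerp also with scaled arrays (0.0464 and 0.0475). The call of VhaM9.7-b was lost with the probe of largest change (0.0561) and without the marked probes (0.0565), and that of Vha44 in the latter (0.0511), while their ratios stayed the same and the fit over all genes changed. LManII turned to 0.0110 without centring, Vha36-2 to -0.0028 with scaled arrays, and Npc1a to 0.13 without its reamplified probe. Alone, 1 array leaves no test. Each ratio already pairs hemocyte plus with hemocyte minus RNA on the same array. No further pairing was possible because there is 1 group of 2 arrays.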
